A study of Mus musculus with 25 samples.

Results

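Mature oligodendrocyte and myelin genes were followed across 5 libraries of prefrontal cortex. The set holds 32 genes, taken by symbol from the 23990 genes of the deposited table, and each of the 32 averaged at least 1 CPM, the reads of a gene scaled to the size of its library. The members were chosen by their expression values in these same libraries, between which oligodendrocyte genes had been seen to differ together. Their spread here is therefore a description, with no test of it.

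The study sequenced total RNA from prefrontal cortex of wild type C57BL/6 mice aged 10 weeks, 25 samples in 6 groups. For each sex the groups were social defeat stress with dihydrocaffeic acid/malvidin-glucoside, social defeat stress with vehicle, and CTRL, and dosing began before the defeat sessions and went on through them. The values below come from the 5 libraries of M-stress/vehicle, males that underwent social defeat and received vehicle. These columns were tied to the labels by their numbering, which assumes that the letter in a column name is a group and the number a replicate. The other 20 columns fit several groups equally well by name and were not used, so whether the same shift occurs in the other groups was not analysed here, and nothing below is an effect of stress, treatment or sex. Whether the libraries are from separate mice is not stated in the labels, so part of the spread may be technical. As a check on the male label, the Y-linked gene Ddx3y stood at 47.1 to 53.8 CPM in the 5 libraries and Xist, expressed from the inactive X chromosome of female cells, at 0.0580 to 0.269 CPM.

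Oligodendrocytes wrap axons of the brain in myelin, a compacted membrane that speeds conduction and feeds the axon. They arise from precursor cells that first become newly formed oligodendrocytes and then switch on the structural proteins and lipid enzymes of myelin, under transcription factors such as Olig2, Sox10 and Myrf. In cortex, myelin is denser in the deep layers and in the white matter beneath them than near the surface. In whole tissue, fewer oligodendrocytes and less RNA per oligodendrocyte cannot be told apart.

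The shift was shared by nearly the whole set. Replicate 3 had the highest level for 30 of 32 members, and replicates 4 and 5 had the lowest level for 25 and 7 members. Over all 14524 genes of at least 1 CPM, 19.3% were highest in replicate 3, 23.5% were lowest in replicate 4 and 16.3% were lowest in replicate 5. The lowest library was replicate 4 or 5 for 32 of 32 members and 39.8% of all genes, and 30 members combined that with a maximum in replicate 3, as 9.69% of all genes did. In 31 of 32 members replicates 1, 2 and 3 all stood above both replicates 4 and 5, an arrangement found in 14.4% of all genes. The exception was Enpp2. The full order from high to low, replicates 3, 1, 2, 5 and 4, was the same in 20 members, and 9 others differed from it only by an exchange of replicates 1 and 2, of replicates 4 and 5, or of both pairs. Each of these orders falls within both arrangements above, those of 9.69% and 14.4% of all genes, and its own share of all genes was not counted.

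To put members of different abundance on a common scale, log2 CPM was expressed as its difference from the gene's mean over the 5 libraries. The median of this difference over the 32 members was 0.28 in replicate 1, 0.12 in replicate 2, 0.56 in replicate 3, -0.50 in replicate 4 and -0.43 in replicate 5. The highest and lowest library medians were 1.06 apart, a 2.08-fold span, and without replicate 3 the span was 1.72-fold. The corresponding span over all genes of at least 1 CPM was 1.01-fold. The 32 genes together took 0.746% of the reads in replicate 1, 0.637% in replicate 2, 0.874% in replicate 3, 0.413% in replicate 4 and 0.425% in replicate 5. Mbp alone made up between 43.0% and 46.0% of the summed CPM of the set in each library, so the proportion held by its most abundant member varied little while the total varied.

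**Figure D1:**
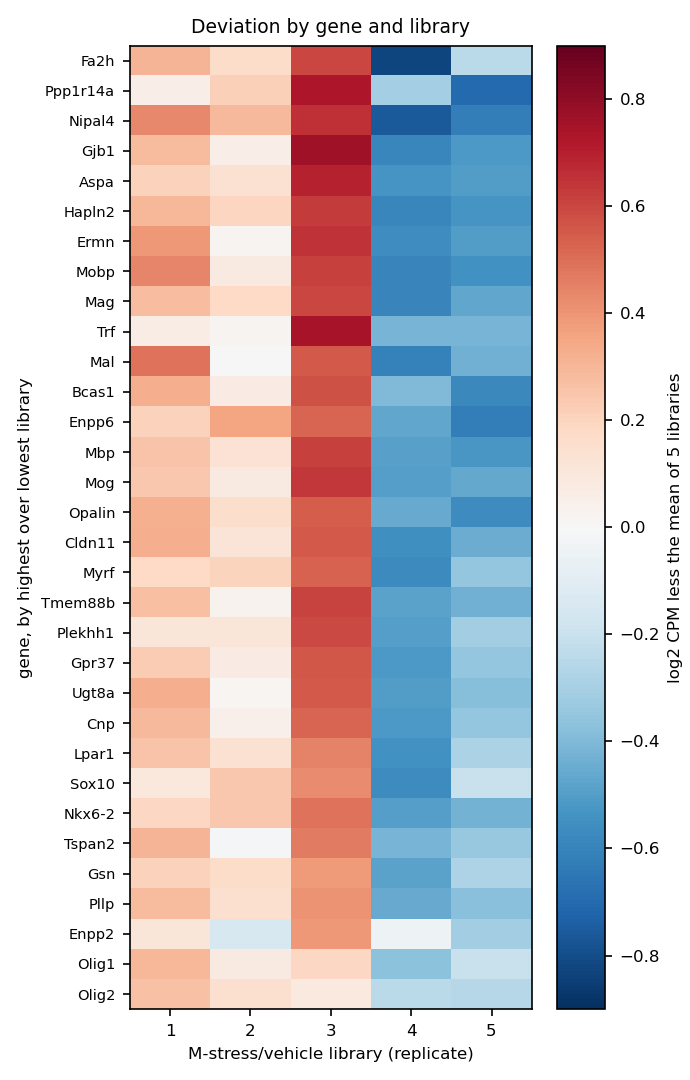
Each row is a gene and each column an M-stress/vehicle library, and the colour gives log2 CPM less the gene's mean over 5 libraries (red above, blue below). Replicate 3 is the reddest column for 30 of 32 genes, replicates 4 and 5 are blue throughout except for the near-white Enpp2 in replicate 4, and the palest rows, at the bottom, are Enpp2, Olig1 and Olig2.

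Members differed in how wide their range was. The ratio of the highest to the lowest library had a median of 2.16 over the 32 members, against 1.26 over all genes of at least 1 CPM, and ran between 1.43 for Olig2 and 2.69 for Fa2h and Ppp1r14a. A ratio of at least 1.5 was reached by 31 of 32 members and by 21.7% of all genes, a ratio of at least 2 by 23 members and by 6.42% of all genes, and a ratio of at least 1.3 by 32 members and by 42.4% of all genes. Low genes scatter more through counting error, so the more abundant genes are a closer setting: at a mean of at least 10 CPM, 29 of 30 members and 6.89% of all genes reached 1.5. Across the 32 genes the ratio had little relation to level (Pearson's r of -0.22 and Spearman's rho of -0.20 with log2 reads scaled to both library size and exon length, RPKM), a description over genes that share the same libraries. The transcription factors had the smallest median ratio of the roles with at least 5 members, at 1.98, and the membrane proteins of the myelin surface and cell body the largest, at 2.29.

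**Figure D2:**
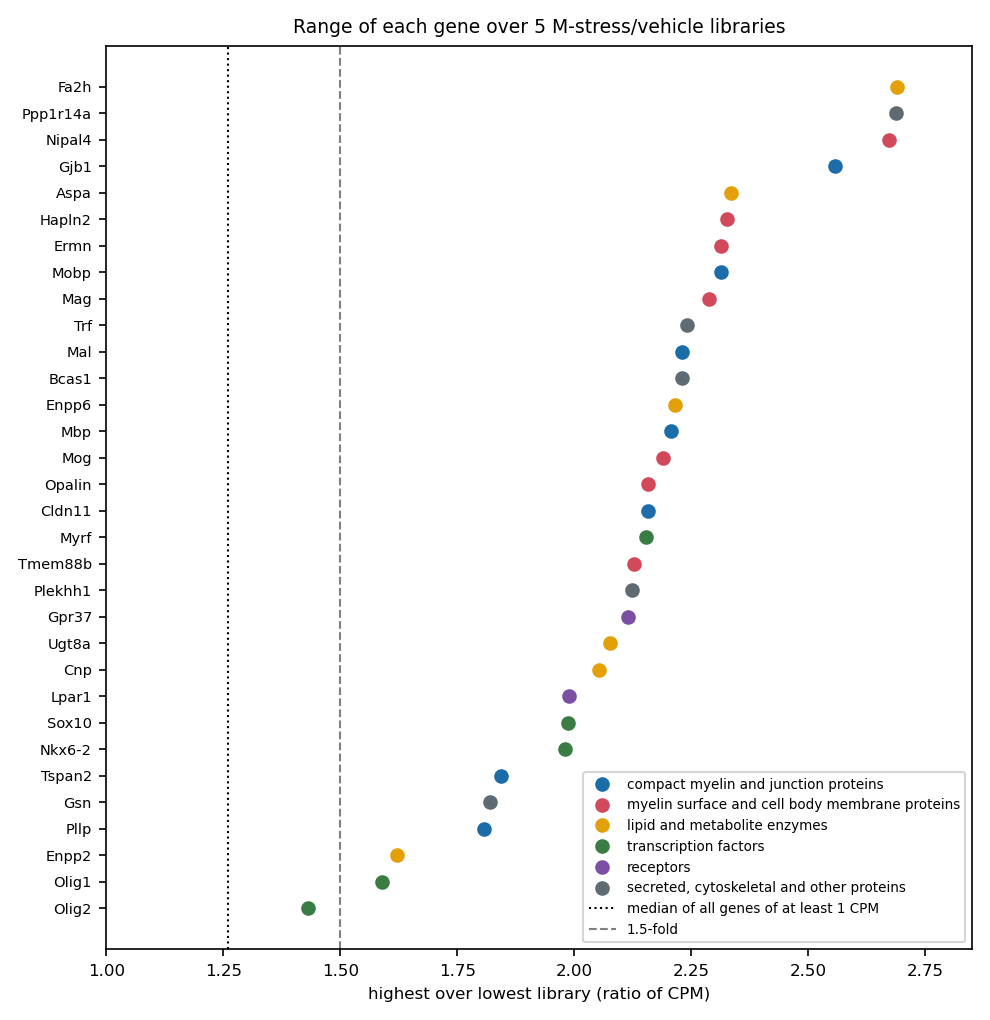
Each point is a gene, placed by the ratio of its highest to its lowest CPM among 5 M-stress/vehicle libraries and coloured by role; the dotted line is the median of all genes of at least 1 CPM (1.26) and the dashed line marks 1.5. All points but Olig2 lie to the right of the dashed line, and the lowest 3 are Enpp2, Olig1 and Olig2.

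The promoters of members were read from RefSeq sequences on GRCm38.p6, windows of 250 bases before and 50 after a transcript start, which the table held for 24 of 32 members in 34 windows. Motifs were searched on both strands as exact letters: the Myrf core CTGGCAC, the SOX cores AACAAT and ACAAAG, and the E-boxes CAGCTG and CATATG bound by factors such as Olig2. None of these motifs contains another. CTGGCAC was present in 6 of 24 member genes, namely Cnp, Hapln2, Lpar1, Mag, Nipal4 and Opalin, and in 5.73% (1548) of all 27025 genes in the table. Members had more windows per gene than the rest, and by window the shares were 20.6% and 5.01%. AACAAT was in 29.2% of member genes and 12.2% of all genes, and ACAAAG in 7 of 24 and 5680 of 27025. CAGCTG was in 20.8% and 18.3%, and CATATG in 8.33% and 4.48%. These shares describe letters in a window and were not tested.

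The windows of 4 genes with the Myrf core are shown as examples of members that carry it, and that of Olig2 as a member that lacks it. They were chosen after the search, and the other genes with the core, Lpar1 and Nipal4, also hold SOX or E-box letters. Whether the core goes with a gene's ratio was not tested, and Gjb1, with a wide ratio of 2.56, also lacks it. Capitals mark the motifs. Cnp is at chr11:100574689-100574988 (plus strand), Mag at chr7:30914814-30915113 (minus), Opalin at chr19:41077064-41077363 (minus), Hapln2 at chr3:88027462-88027761 (minus) and Olig2 at chr16:91225300-91225599 (plus).
Cnp: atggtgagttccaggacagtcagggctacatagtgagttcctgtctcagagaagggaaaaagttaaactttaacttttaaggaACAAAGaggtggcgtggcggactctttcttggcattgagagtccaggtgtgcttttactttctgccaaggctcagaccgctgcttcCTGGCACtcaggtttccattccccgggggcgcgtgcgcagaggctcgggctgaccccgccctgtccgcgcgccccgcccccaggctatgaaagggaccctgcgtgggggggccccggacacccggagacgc
Mag: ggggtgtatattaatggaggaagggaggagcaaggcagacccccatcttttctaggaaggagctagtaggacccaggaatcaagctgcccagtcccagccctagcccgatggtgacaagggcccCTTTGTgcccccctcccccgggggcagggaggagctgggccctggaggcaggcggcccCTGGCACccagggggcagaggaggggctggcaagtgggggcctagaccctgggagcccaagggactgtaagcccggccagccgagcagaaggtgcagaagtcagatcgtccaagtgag
Opalin: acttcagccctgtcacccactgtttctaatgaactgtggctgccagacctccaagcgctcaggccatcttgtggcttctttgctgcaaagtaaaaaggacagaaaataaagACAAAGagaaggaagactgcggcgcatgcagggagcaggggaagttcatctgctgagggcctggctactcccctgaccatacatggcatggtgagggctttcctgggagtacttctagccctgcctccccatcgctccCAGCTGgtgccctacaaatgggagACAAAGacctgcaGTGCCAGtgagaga
Hapln2: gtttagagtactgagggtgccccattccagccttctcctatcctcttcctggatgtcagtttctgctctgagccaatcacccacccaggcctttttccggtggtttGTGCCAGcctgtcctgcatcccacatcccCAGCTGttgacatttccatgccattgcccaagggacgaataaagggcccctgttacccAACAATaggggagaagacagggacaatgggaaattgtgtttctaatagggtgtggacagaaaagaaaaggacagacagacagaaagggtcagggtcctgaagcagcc
Olig2: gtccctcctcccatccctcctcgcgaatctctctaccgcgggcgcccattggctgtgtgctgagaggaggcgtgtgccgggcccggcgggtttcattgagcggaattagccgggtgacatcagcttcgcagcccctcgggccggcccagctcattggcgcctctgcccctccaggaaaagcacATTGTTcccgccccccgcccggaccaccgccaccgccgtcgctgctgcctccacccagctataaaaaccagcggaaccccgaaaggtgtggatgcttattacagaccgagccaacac
Counted from the RefSeq start to a motif's first base, the Myrf core lay at -81 in Cnp and -68 in Mag, and ACAAAG or its reverse complement at -167 and -126. On the reverse strand, the core lay at -144 in Hapln2 and at 37 in Opalin. These positions say where the letters are, not that a factor binds them.

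Compact myelin and its junctions were represented by 7 genes. Mbp, whose basic protein holds the cytoplasmic faces of the membrane together, was the most abundant member per exon length at 322 ± 108 RPKM (SD, n = 5 for this and later errors). It stood at 3112, 2853, 3991, 1857 and 1809 CPM in replicates 1 to 5 and is the one gene of this role with its lowest value in replicate 5, by a margin far smaller than its distance from the other libraries. Gjb1, the gap junction protein connexin of the outer myelin layers, had the widest range of the role. Its levels were 15.9, 13.6, 22.2, 8.70 and 9.14 CPM, a ratio of 2.56, with replicate 3 well above the other 4 libraries. Pllp, a small membrane-spanning protein of myelin, had the narrowest range, with 68.6, 62.2, 74.3, 41.1 and 43.4 CPM in replicates 1 to 5 and a ratio of 1.81. Its libraries again fell into a high set of 3 and a low set of 2. The other genes of this role were Mobp, a second basic protein (128 ± 47.1 RPKM), Cldn11, which seals the layers of the sheath as a tight junction (86.9 ± 28.0 RPKM), the sorting proteolipid Mal (83.7 ± 29.4 RPKM) and the tetraspanin Tspan2 (29.6 ± 7.92 RPKM), and their ratios ran between 1.84 and 2.31. Cldn11 lay closest of all 32 members to the median profile.

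Among 7 proteins of the myelin surface and the oligodendrocyte membrane, the most abundant per length was Mag, the adhesion molecule of the membrane facing the axon, at 47.8 ± 16.2 RPKM. Mag stood at 225, 210, 281, 123 and 134 CPM in replicates 1 to 5, a ratio of 2.29, with no overlap between replicates 1 to 3 and replicates 4 and 5. Opalin, a protein of the paranode and inner loop, had 31.3, 27.9, 36.5, 18.2 and 16.9 CPM and was lowest in replicate 5. Nipal4 had the widest range of this role, with 6.11, 5.54, 7.13, 2.67 and 2.94 CPM in replicates 1 to 5 and a ratio of 2.67. It also had the fewest reads of the 32 genes. Its lowest value came from 92 reads, for which counting error alone gives an exact 95% Poisson interval of 2.15 to 3.27 CPM, well short of the 3 high libraries. Tmem88b had the narrowest range, with 109, 92.0, 137, 64.6 and 66.7 CPM and a ratio of 2.13. Mog, the outermost glycoprotein, Ermn, a cytoskeletal protein of myelinating cells, and Hapln2, a matrix link protein of the node of Ranvier, had ratios of 2.19, 2.31 and 2.33.

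The 6 enzymes ran between close followers of the median profile and the member farthest from it. Cnp, the cyclic nucleotide phosphodiesterase that keeps cytoplasmic channels of myelin open, led them at 102 ± 30.1 RPKM. It stood at 439, 372, 516, 252 and 282 CPM in replicates 1 to 5, a ratio of 2.05, close to the median profile. Fa2h, which hydroxylates the fatty acids of myelin galactolipids, had 51.1, 46.4, 62.5, 23.3 and 34.9 CPM. Its ratio of 2.69 turned on replicate 4, which stood clearly below replicate 5, and without replicate 4 the ratio was 1.79. Ugt8a, which attaches galactose to ceramide, kept the common order with a ratio of 2.08. Aspa, which frees acetate from N-acetylaspartate, had a ratio of 2.33.

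Enpp2 departed furthest from the common profile. This enzyme, autotaxin, makes the signalling lipid lysophosphatidic acid and is also made by choroid plexus and leptomeninges. Its levels were 190, 159, 230.0, 171 and 142 CPM in replicates 1 to 5, so replicate 4 stood above replicate 2, which happened in no other member. The ratio was 1.62, and 1.34 without replicate 3. Of 8 measured genes of the ependymal and choroid plexus list, which summed to 7.01 to 8.79 CPM, 6 averaged under 1 CPM, with Ttr at 0 to 0.352 CPM and Kcnj13 at 0 to 0.0870 CPM. The other 2 were Foxj1, at 3.39 to 6.12 CPM and lowest in replicate 4, and Kl, at 1.10 to 2.44 CPM and highest in replicate 4. The 10 scored leptomeningeal genes had a library median of 0.82 in replicate 4 and -0.80 in replicate 3, and the part of either tissue in the Enpp2 values was not tested. Enpp6, a choline phosphodiesterase typical of newly forming oligodendrocytes, had 7.48, 8.32, 9.35, 4.70 and 4.22 CPM. It followed the mature genes, with a ratio of 2.22, although replicate 2 stood above replicate 1.

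Of the 5 transcription factors, Olig1 and Olig2 had the smallest ratios. Myrf, which switches on myelin genes as the cell matures, had the widest range, with 77.0, 78.2, 98.4, 45.7 and 53.5 CPM in replicates 1 to 5 and a ratio of 2.15. Nkx6-2, a homeobox factor of maturing oligodendrocytes, and Sox10, which is expressed through the lineage, had ratios of 1.98 and 1.99. Myrf, Nkx6-2 and Sox10 shared 1 order of libraries, in which replicate 3 led, replicate 2 stood above replicate 1 and replicate 4 was last. Olig1, the most abundant factor per length at 63.4 ± 11.8 RPKM, had 166, 143, 154, 105 and 118 CPM. Olig2, which specifies the lineage and is present in precursors as well as in mature cells, had 40.5, 37.3, 35.8, 28.6 and 28.3 CPM. Olig1 and Olig2 were the members whose highest library was replicate 1, and their ratios of 1.59 and 1.43 were the lowest of the set. They are neighbours on chromosome 16 (GRCm38; Olig2 at 91225457 to 91228677 and Olig1 at 91269772 to 91271933, both on the plus strand), 41094 bases apart. For each of the other members the replicate 3 level was above both replicate 1 and replicate 2.

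The receptors Gpr37 and Lpar1 stayed near the median profile. Gpr37, an orphan receptor linked to the timing of oligodendrocyte maturation in mice, stood at 88.2, 79.3, 111, 52.6 and 59.3 CPM in replicates 1 to 5, a ratio of 2.11. Lpar1, a receptor for the lipid that autotaxin makes, had 43.1, 39.6, 49.1, 24.7 and 29.6 CPM and a ratio of 1.99. Lpar1 thus kept replicate 4 lowest, whereas Enpp2, the enzyme for its ligand, did not.

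Of the 5 remaining members, Bcas1, which marks early myelinating oligodendrocytes, was the most abundant per length at 41.0 ± 13.4 RPKM. Its levels of 186, 156, 221, 112 and 98.9 CPM gave a ratio of 2.23, with replicate 5 lowest. Ppp1r14a, an inhibitor of myosin phosphatase that smooth muscle also makes, had 21.6, 23.9, 34.2, 16.7 and 12.7 CPM. Its ratio of 2.69 was spread between replicate 3 at the top and replicate 5, rather than replicate 4, at the bottom. Gsn, the actin-severing protein gelsolin, had 73.8, 71.9, 83.4, 45.8 and 52.9 CPM and the smallest ratio of this role, 1.82. Trf, the iron carrier transferrin, and Plekhh1 had ratios of 2.24 and 2.12, and 1.40 and 1.52 without replicate 3. The level of Trf (4.40 ± 1.59 RPKM) is uncertain, because 63.5% of its exon bases are shared on the same strand with another annotated gene, Gm20425, and reads in such a stretch may have been left uncounted. Likewise 54.2% of the exon bases of Pllp overlap an antisense gene, and the strand setting of the counting is not given in the sources used here. Without it, reads of opposite-strand partners cannot be told apart either for Plekhh1 (14.8% of exon bases shared with Pigh), Nkx6-2 (12.9% with Inpp5a, at 35.3 CPM), Bcas1 (11.7% with Bcas1os1) and Cnp (4.23% with Dnajc7, at 108 CPM).

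**Figure D3:**
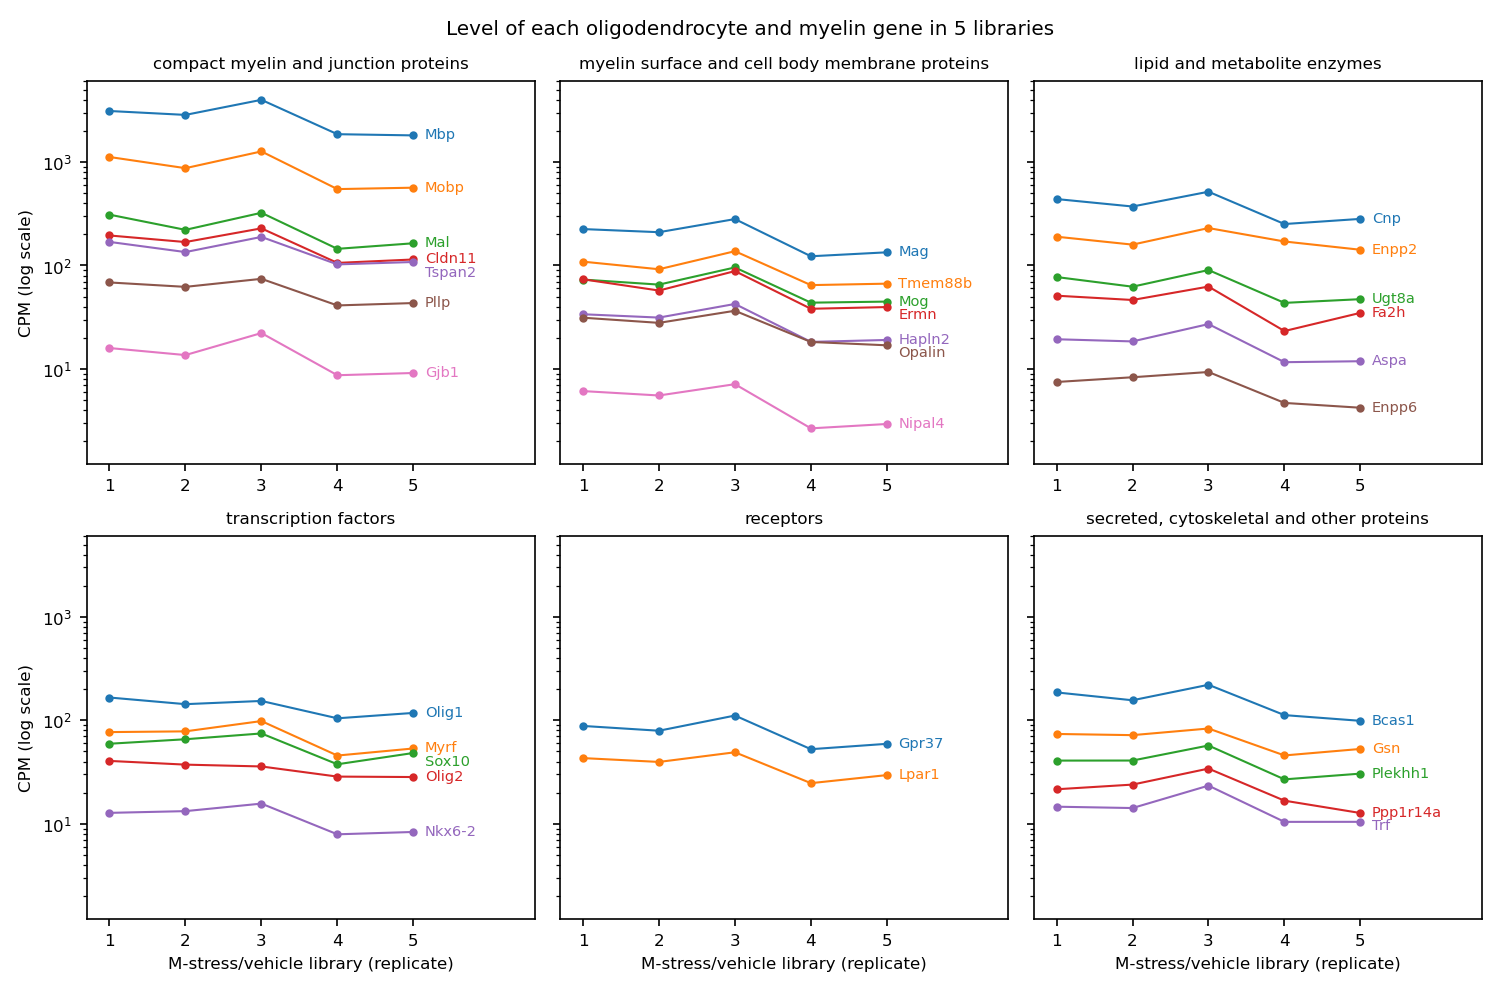
CPM on a log scale for each of 32 genes in replicates 1 to 5 of M-stress/vehicle, one panel per role and one line per gene. Most lines run in parallel with a peak at replicate 3 and low values in replicates 4 and 5, as for Mbp (1809 to 3991 CPM) and Nipal4 (2.67 to 7.13 CPM), while Enpp2, Olig1 and Olig2 are flatter.

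Other myelin genes showed much the same order of libraries. The list of 33 further oligodendrocyte genes was written with earlier results of these data known, so it is not independent of them. Of the 33 genes, 32 were highest in replicate 3 (19.3% of all genes were). All 33 were higher in replicate 3 than in replicate 4 (49.6% of all genes were). A ratio of at least 1.5 was reached by 27 of them and by 21.7% of all genes. Klk6, a protease of mature oligodendrocytes, had the largest ratio of that list, 3.32, which was 1.504 without replicate 3. Its level was 6.17 CPM in replicate 3 and 1.86 to 2.79 CPM in the others. Tppp had the smallest ratio, 1.15. The list's library medians spanned 1.82-fold, and 1.46-fold without replicate 3.

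Genes of earlier stages of the lineage spread less. The 12 scored genes of newly formed oligodendrocytes had medians of 0.10, -0.01, 0.04, -0.20 and -0.04 in replicates 1 to 5, a span of 1.23-fold, and 1.09-fold without replicate 4. Gpr17, a receptor of that stage, stood at 64.4, 52.1, 53.3, 44.9 and 58.7 CPM. The 14 precursor genes spanned 1.15-fold, and 1.07-fold without replicate 4, and Pdgfra, the growth factor receptor that defines precursors, had 61.3, 59.9, 56.9, 55.7 and 63.5 CPM. Replicate 5, which was low for the mature genes, was the highest library for Pdgfra. The span of the precursor and newly formed lists was thus smaller than that of any role of the 32 genes, a comparison that was not tested. Olig2 and Olig1, which both stages share, had ratios of 1.43 and 1.59, between the median of the precursor list, 1.27, and that of the mature set, 2.16. The median ratio of the newly formed list was 1.42, and Sox10, also expressed through the lineage, had 1.99.

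Among the 10 genes nearest in profile to the median of the set, out of non-members of at least 10 CPM, were Prr18, Tmem63a, Gjc3, Sox2ot, Litaf, Cpm, Galnt6 and 1700047M11Rik. Likeness was the root mean square distance of log2 differences over 5 libraries, and it ran between 0.04 for Prr18 and 0.08 for 1700047M11Rik. Of these 8 genes, Prr18, Tmem63a, Gjc3 and Galnt6 were in the list of further oligodendrocyte genes. Gjc3 encodes a connexin of oligodendrocytes, and Sox2ot is a long noncoding RNA. The nearest gene from a list of another cell type was Ccn2, a secreted protein of layer 6b neurons at the border of the white matter, at rank 12. Ccn2 had 43.5, 43.3, 53.5, 24.6 and 24.8 CPM in replicates 1 to 5, and like the members it stood apart in replicates 4 and 5.

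Lists of other cell types were set beside the members. The 11 genes of deep-layer and layer 6b neurons had medians of 0.04, 0.21, 0.25, -0.39 and 0.05 in replicates 1 to 5. Their span was 1.56-fold, and 1.17-fold without replicate 4. Of the 11 genes, 9 were lowest in replicate 4, as 23.5% of all genes were. The 8 upper-layer genes were all highest in replicate 4, as 26.8% of all genes were, and their median there was 0.52, against -0.04 to -0.25 in the other libraries. That span of 1.71-fold was 1.17-fold without replicate 4. Replicate 5, low for myelin genes, had medians of 0.05 for the deep-layer list and -0.05 for the upper-layer list. The deep-layer genes were mixed there: Ntsr1 was highest in replicate 5, at 24.3 CPM, and the layer 6b genes Ccn2, Nxph4 and Cplx3 were low in it as the myelin genes were. Nxph4 stood at 8.76, 10.9, 13.4, 5.10 and 5.88 CPM in replicates 1 to 5. Cplx3 had 31.8, 34.5, 38.9, 22.7 and 17.8 CPM. Moxd1, also of this list, was not low in replicate 5, with 9.94, 10.3, 8.72, 8.35 and 9.72 CPM in replicates 1 to 5. Leptomeningeal fibroblast genes had medians of 0.10, -0.54, -0.80, 0.82 and 0.30 and spanned 3.08-fold, or 2.05-fold without replicate 4. Of the 10 scored genes, 10 were lower in replicate 3 than in replicate 4, whereas 49.6% of all genes were higher in replicate 3. Red blood cell genes spanned 2.04-fold, with their lowest median in replicate 2. The part of these lists in the spread of the myelin genes was not tested.

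The remaining lists had smaller spans. Astrocyte genes spanned 1.13-fold, excitatory neuron genes 1.17-fold and inhibitory neuron genes 1.10-fold, and the microglia medians were 0.26 apart on the log2 scale. Endothelial genes spanned 1.17-fold, pericyte and mural genes 1.33-fold, astrocyte genes of white matter and layer 1 1.21-fold and Schwann cell genes 1.19-fold, and the ependymal and choroid plexus list, with 2 genes of at least 1 CPM, was not scored. Striatal projection neuron genes, which would mark tissue from below the cortex, had their highest median in replicate 3 (0.24), with -0.10 to 0.03 in the others. The 14 genes of the axon's nodes and paranodes spanned 1.28-fold, with their highest median in replicate 4. Cholesterol is a main lipid of myelin, and 19 of 19 genes of its synthesis were higher in replicate 3 than in replicate 4 (49.6% of all genes were). Replicate 4 was not the low library of this list, with a median of 0.01 against 0.17 in replicate 3 and -0.07, the lowest, in replicate 1. Only 9 of 19 genes were higher in replicate 2 than in replicate 4, as 6898 of all 14524 genes were. The medians of the list spanned 1.18-fold and 1 gene reached a ratio of 1.5.

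**Figure D4:**
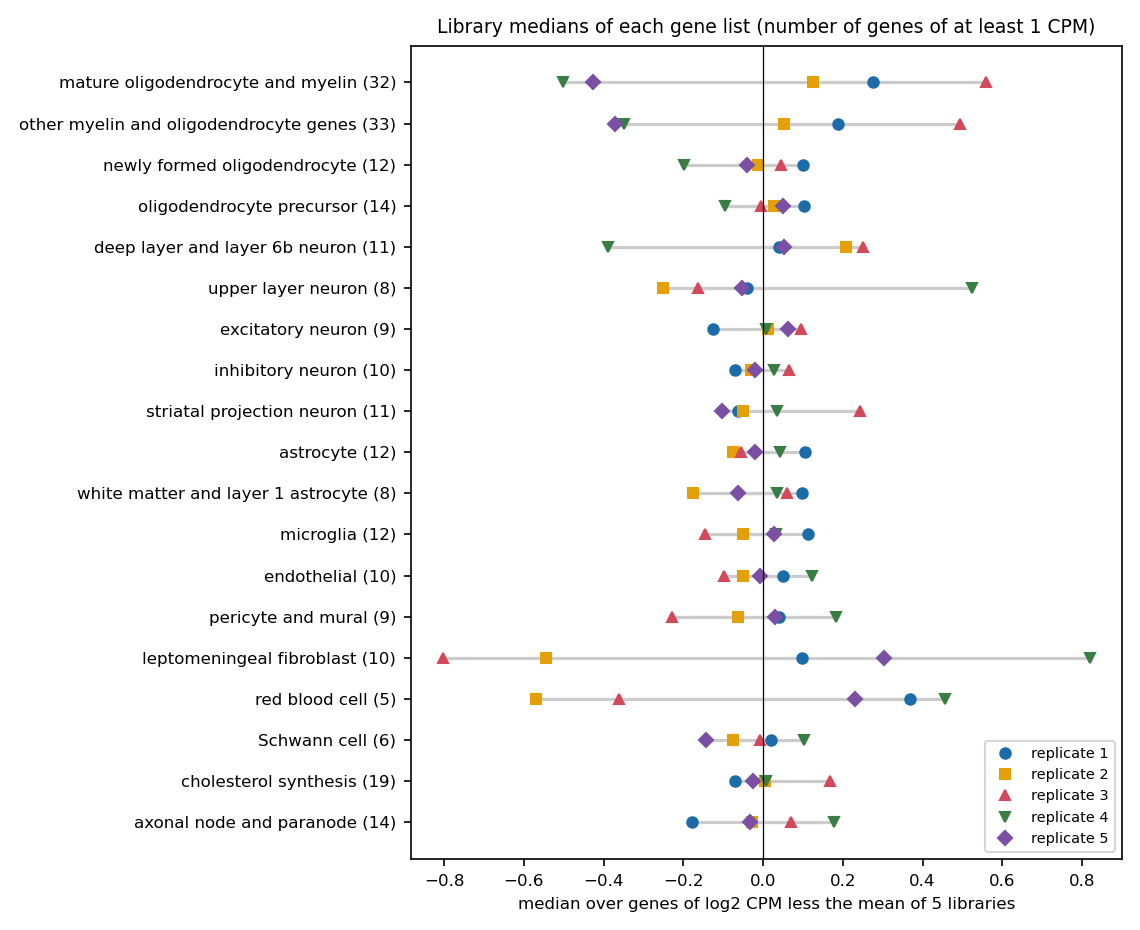
Each row is a gene list and each symbol a library of M-stress/vehicle, placed at the median over genes of log2 CPM less the gene's mean over 5 libraries. The 32 genes run between -0.50 in replicate 4 and 0.56 in replicate 3, and the further myelin genes lie much the same way. The leptomeningeal list has the opposite sign in every library but replicate 1, where both medians are above the mean.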

How the data were processed

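Total RNA of prefrontal cortex was sequenced, and 5 libraries (M-stress/vehicle, replicates 1 to 5) were used. The submitters' processing notes name featureCounts (Subread 1.6.3), edgeR, SAMtools 1.9 and the aligner STAR 2.6.1d, and the builds GRCm38 and mm10. For annotation version, strandedness and gene filter, the entry is "not given in the sources used here". The authors deposited log2 values. Their form was inferred from the values as log2 CPM with 0.5 reads added and an effective library size: reads came out whole within 1e-06 in every value used. The other 20 columns of the table were not used.

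Reads, CPM and RPKM (union exon length, GENCODE M21, GRCm38) were computed from these values (scipy 1.17.1, pandas 2.3.3 and numpy 2.4.6 under Python 3.11.15; figures with matplotlib 3.10.9). Identifiers were matched to symbols for 23856 of 23990 genes. Libraries held 34565147 to 44265039 reads, and 3 reads correspond to 0.0673 to 0.0870 CPM. Intervals cover counting error only, since reads may include PCR copies.

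The members and the 19 other gene lists were chosen with earlier results of these data known. List medians use genes averaging 1 CPM or more, in lists with at least 3 such genes. Values in every library are given for the most abundant (RPKM), widest-ranging and narrowest-ranging member of each role and for members whose highest or lowest library differs from that of the median. Some genes of the lists and of the nearest genes are not reported here. No test of a difference was made, and Dixon's ratio served only to screen for single libraries set apart. The steps were tested on simulated data. Alternatives were scaling by summed reads or median of ratios, 0.1 or 2 reads added, a minimum of 10 CPM or none, thresholds of 1.3 and 2, and leaving out each replicate.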

Additional observations from a re-analysis of the deposited data

Results flagged for a closer look

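Dixon's ratio was examined for 61 genes and gene lists. They include the 32 members, their median and the 10 genes nearest to it in profile, all chosen by values in these libraries. The screen is therefore no test of their spread. About 3.05 marked items would be given by chance if all 61 were unrelated. These items share libraries and profiles, so that number is no reference for the count found. The ratio marked 1 item for a single library set apart. It was the list of upper-layer neuron genes, with a ratio of 0.730. Its median difference from the gene means was 0.52 in replicate 4, against -0.25 to -0.04 in the other libraries. Replicate 4 also had the lowest median of the oligodendrocyte and myelin genes, and the part of this list in the myelin values was not tested.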

How the results depend on the processing

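No paired analysis was possible because the columns of only 1 group could be tied to the labels. The span of the library medians of the 32 genes was 2.08- to 2.11-fold under the other scalings, added reads and filters, and with 1 replicate omitted at a time it was 1.72- to 2.11-fold. Members with a ratio of at least 1.5 numbered 29 to 31 over those settings. Without replicate 3 the highest library was replicate 1, for 26 members. Other lists whose medians spanned at least 1.5-fold numbered 5 of 18. They numbered 3 with a minimum of 10 CPM, where the leptomeningeal and red blood cell lists had too few genes, 6 with no minimum, and 3 to 5 with 1 replicate omitted at a time (3 without replicate 3 and 3 without replicate 4). The ratio of Klk6 without replicate 3 was computed after seeing the data. Depth limits the members little, since counting error came to at most 7.10% of the mean for any of them. All values rest on 5 libraries of 1 group.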
